A study of Mus musculus with 11 samples.

Results

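The comparison described here sets the middle of the mouse epididymis, the caput/corpus, against both of its ends, the initial segments (IS) and the cauda, in sorted mononuclear phagocytes. It used every library of the study, 11 of 11, with 4 for the IS, 3 for the caput/corpus and 4 for the cauda. All mice were CX3CR1 EGFP +/- and 12 weeks old, so the reporter allele is shared by all 3 groups and no wild-type or untreated control enters the comparison. EGFP in these mice is driven from the CX3CR1 gene, and EGFP-positive cells were sorted in 2 rounds, from 4 epididymides per library. The labels do not tie libraries to animals, so the p-values measure the spread between these libraries, part of which may be technical. Titles fall into a series Maj3 (2 IS, 1 caput/corpus and 2 cauda libraries) and a series Maj4 (2 in each region). Libraries held 16873180 to 31737132 reads on genes.

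The epididymis is the coiled duct in which sperm mature on their way from the testis. Its epithelium secretes a different mixture of proteins in each stretch: lipocalins that carry small lipophilic molecules, protease inhibitors, peroxidases and beta-defensins, which are small cationic antimicrobial peptides. Macrophages, dendritic cells and monocytes lie around and within this epithelium, where they meet both antigens of sperm and microbes that ascend the duct. Cx3cr1, the receptor for fractalkine, is carried by much of this family. RNA from such a sort can hold transcripts of neighbouring cells as well as those of the sorted cells.

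For each gene the fitted log2 level of the caput/corpus was compared with the average of the fitted log2 levels of IS and cauda, with the title series as a covariate. The difference is called the middle contrast here. It is 0 for a gene that changes in an even slope along the duct, positive where the middle lies above that slope and negative where it lies below. A gene that falls steeply only after the caput/corpus also has a positive middle contrast, so each gene was further described as a peak (above both ends), a dip (below both) or as lying between the ends, from its fitted levels. Genes were called at a Benjamini-Hochberg adjusted p under 0.05 in edgeR's quasi-likelihood test over 15116 genes. Levels are CPM, the read counts per 1000000 reads of the normalised library size. Errors of levels are SD over libraries, and errors of log2 differences are standard errors of the fit.

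Before the results, a conflict in the deposited data has to be given. The reads used are those behind the named columns of the deposited RPKM table. For 8 libraries the separately deposited count file holds these same reads. For 3 Maj3 libraries it does not. The file listed for IS replicate 2 matches no column, the file listed for caput/corpus replicate 1 carries the reads of the column for IS replicate 2, and that listed for cauda replicate 1 carries those of the column for caput/corpus replicate 1. No file matches the column for cauda replicate 1. With the files taken as listed, 0 genes were called by edgeR and 683 had an unadjusted p under 0.05. With the 8 undisputed libraries 23 genes were called, 9 of them among the 15 described next. Cauda replicate 1 also stood apart: reads fell on 13434 genes, while the number for the rest of the cauda was 17168 to 17789.

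By edgeR few genes were called in the middle contrast, and these were mostly transcripts known from the secretory epithelium. The middle contrast called 15 of 15116 genes (0.0992%), all 15 higher in the caput/corpus and 0 lower. Of the 15, 10 peaked in the middle and 5 lay between the ends, with their highest levels in IS. The number depended on the test: DESeq2's Wald test called 185 genes and limma-voom with quality weights 181. An unadjusted p under 0.05 was reached by 995 genes (6.58%), of which 731 were on the higher side (4.84%) and 264 on the lower side (1.75%). By contrast, the ends differed from each other in 2488 genes (16.5%), the caput/corpus differed from IS in 571 (3.78%) and from cauda in 93 (0.615%). These comparisons share libraries with each other. Among the 7323 genes with a mean of at least 20 CPM, the median size of the middle contrast was 0.13 on the log2 scale against 0.30 between the ends, with a median standard error of 0.17 for both. Of the 15 called genes, 4 were in this range of levels. Without caput/corpus replicate 1, 2 genes were called (Lcn5 and Gpx5), without cauda replicate 1 there were 35, and without each of the other 9 libraries in turn there were 8 to 10. Over 26 alternative analyses Lcn5 and Gpx5 were called in 24, Spink8 in 23, Spink11 in 22, Lypd8, Epp13 and Defb20 in 21 and Defb30 in 20, while Clpsl2, Defb42, Defb15, Defb23, Gm17416, C4bp and Spp1 were called in 8 to 11.

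**Figure D1:**
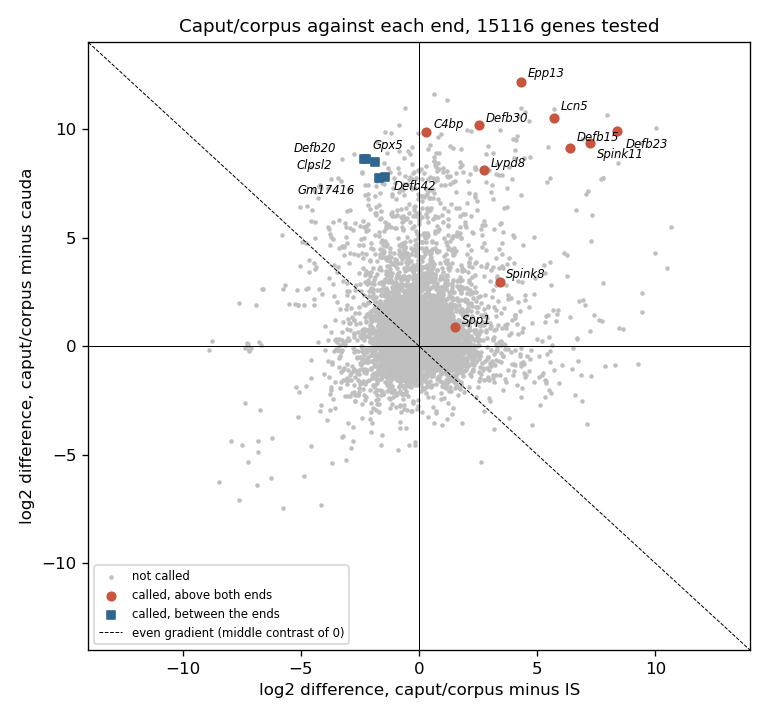
Each point is 1 of the 15116 genes tested, placed by its log2 difference of caput/corpus minus IS (horizontal) and minus cauda (vertical). On the dashed line the middle contrast is 0, the 10 called genes above both ends lie up and right of the origin (red circles), and the 5 called genes between the ends lie left of the vertical axis (blue squares).

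Lcn5 (ENSMUSG00000026937) had the smallest p of the middle contrast. It encodes a lipocalin of the epididymal fluid that binds retinoids. Its level was 1.73, 1.77, 0.863 and 0.907 CPM in IS replicates 1 to 4, 52.2, 101 and 46.6 in caput/corpus replicates 1 to 3 and 0, 0.0338, 0.0579 and 0.0879 in cauda replicates 1 to 4. Every caput/corpus library was thus above every end library, and cauda was close to nil with 4 reads over its 4 libraries. The middle contrast was 8.11 ± 0.44 (edgeR adjusted p = 5.07e-05), from a difference of 5.70 ± 0.50 over IS and of 10.52 ± 0.66 over cauda. A gene was taken as past both ends when the larger of its p-values against IS and against cauda passed adjustment, and Lcn5 was the only such gene (0.00662% of those tested, adjusted p = 0.00661). At an unadjusted p under 0.05 against each end, 127 genes lay past both ends (0.84%), 68 above (0.45%) and 59 below (0.39%). Without IS replicate 3, IS replicate 4, caput/corpus replicate 1 or caput/corpus replicate 2, 0 genes passed this adjusted test. The middle contrast of Lcn5 was 8.11 in the Maj3 libraries alone and 8.10 in the Maj4 libraries alone. In a bulk sample, fewer cells carrying a transcript and less of it per cell cannot be told apart, here and in what follows.

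Spink11 and Spink8, Kazal-type serine protease inhibitors, were called as peaks too. Of 12 genes of the Spink family by symbol, 6 passed the filter on low counts and these 2 were called. Spink11 stood at 0.318, 0.0376, 0 and 0.389 CPM in IS, 25.1, 49.6 and 22.8 in the caput/corpus and 0, 0.0338, 0 and 0.132 in cauda. Here too the 3 middle libraries were all above the 8 end libraries (middle contrast 8.30 ± 0.79, edgeR adjusted p = 0.00435). Spink8 was present all along the duct, at 5.56, 8.71, 5.18 and 2.68 CPM in IS, 69.3, 54.6 and 45.1 in the caput/corpus and 3.48, 8.43, 10.4 and 6.37 in cauda. Its ends were close to each other and its middle about an order of magnitude higher, again with no overlap (middle contrast 3.19 ± 0.35, edgeR adjusted p = 0.00558). Spink8 was the called secretory gene whose ends were most alike, so that its contrast rested on neither end alone: the caput/corpus exceeded IS by 3.41 ± 0.45 and cauda by 2.98 ± 0.43 on the log2 scale.

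Lypd8 and Epp13 were called peaks of lower level. Lypd8, a cell-surface protein of the LY6/PLAUR family, stood at 0.495, 1.16, 2.1 and 3.11 CPM in IS, 11.2, 13.1 and 8.39 in the caput/corpus and 0.0355, 0.0338, 0.0579 and 0 in cauda (middle contrast 5.42 ± 0.57, edgeR adjusted p = 0.00511). Epp13, an epididymal protein gene, stood at 2.05, 1.47, 0.863 and 0.432 CPM in IS and 18.5, 26.9 and 12.6 in the caput/corpus and had 0 reads in all 4 cauda libraries, so that the caput/corpus was at least 627-fold higher than a floor of 3 reads over the cauda group (edgeR adjusted p = 0.00511 for the middle contrast). In both genes the lowest middle library was above the highest IS library. C4bp, which encodes an inhibitor of the complement cascade, was called as well (middle contrast 5.09 ± 0.69, edgeR adjusted p = 0.0331) but on other grounds. Its IS libraries, at 16.9, 21.6, 5.88 and 6.13 CPM, overlapped its caput/corpus libraries, at 9.6, 22.4 and 5.63, and only cauda lacked it, with 1 read in all.

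**Figure D2:**
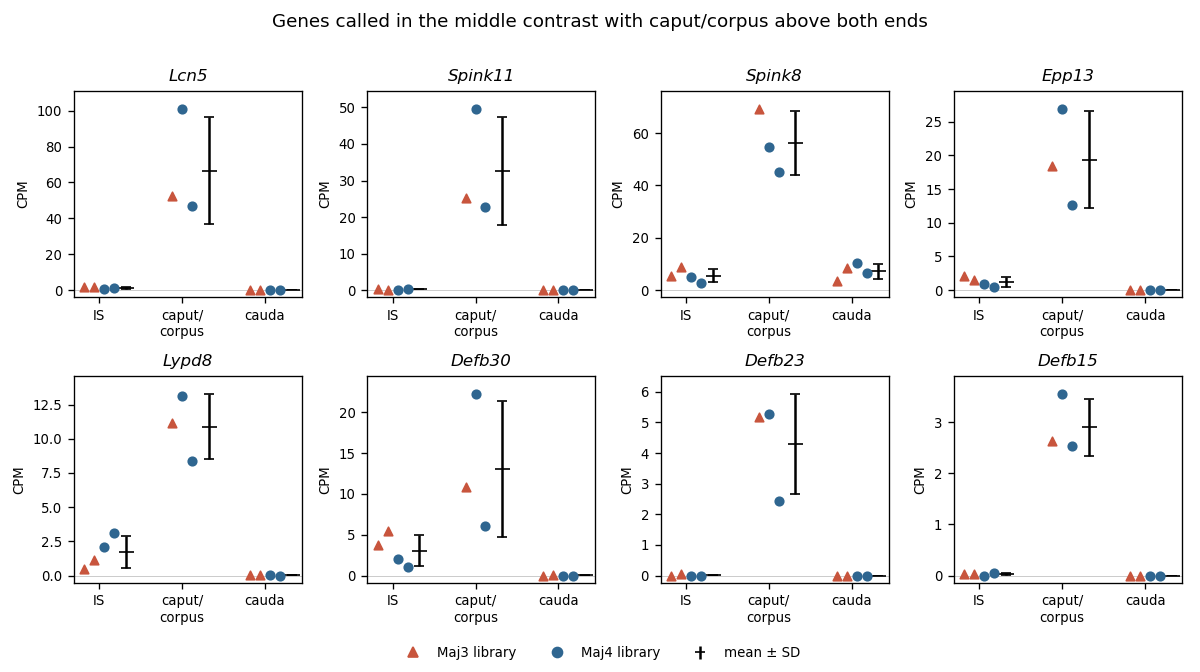
CPM in each library for 8 called genes whose fitted level in the caput/corpus lay above both ends, with 1 point per library (triangles Maj3, circles Maj4), the mean ± SD of each region as a bar, and regions in the order of the duct. In all 8 genes the 3 caput/corpus points lie above all 8 end points, and Spink8 is the one whose cauda points lie clearly off 0.

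Beta-defensins formed the largest family among the called genes, with 3 peaks (Defb30, Defb23 and Defb15) and 2 genes between the ends (Defb20 and Defb42). Defb30 stood at 3.75, 5.41, 2.05 and 1.04 CPM in IS and 10.9, 22.2 and 6.06 in the caput/corpus, with 1 read over the cauda libraries (middle contrast 6.35 ± 0.68, edgeR adjusted p = 0.00545). Defb23 had 1 read over the 4 IS libraries and 0 over the 4 cauda libraries against 5.18, 5.29 and 2.43 CPM in the caput/corpus. That was a ratio of 424 over IS (95% counting interval 75.4 to 16785) and at least 143-fold over cauda (edgeR adjusted p = 0.0331 for the middle contrast). Defb15 had 3 reads over IS and 0 over cauda against 2.63, 3.54 and 2.52 CPM in the caput/corpus. Its ratio over IS was 92.4 (31.2 to 452), and the caput/corpus was at least 93.5-fold above cauda (edgeR adjusted p = 0.0379). These intervals and floors cover counting error only. Taken by symbol, a grouping made after values had been seen, the table held 41 beta-defensins, of which 34 had a read, 24 passed the filter on low counts and 5 were called. A gene could pass that filter through the 3 caput/corpus libraries alone, so counts over the 24 say nothing of a direction of the family. Defb22 was among those not called, with 0 reads in IS and 15.3, 2.72 and 6.84 CPM in the caput/corpus against 0.0355, 0.0677, 0.753 and 0 in cauda (edgeR adjusted p = 0.157). Defensins are short paralogs, and the count files set non-unique alignments apart from the genes. These made up 27.6 to 35.8% of the entries in the files listed for Maj3 and 12.5 to 14.7% for Maj4. How many of them belong to each defensin is not shown.

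Promoters of these genes are shown because genes of the epididymal epithelium are known to answer to androgen, whose receptor binds the 6-letter core AGAACA. They run from 250 bases before the start site to 50 bases after it and come from RefSeq (GRCm38.p6), which differs from build mm9 of the deposited data. The table held 12 of the 15 called genes. Capitals mark the core on either strand (AGAACA or TGTTCT), and each line gives the sequence in the direction of transcription.
Lcn5 promoter, chr2:25657702-25658001, plus strand: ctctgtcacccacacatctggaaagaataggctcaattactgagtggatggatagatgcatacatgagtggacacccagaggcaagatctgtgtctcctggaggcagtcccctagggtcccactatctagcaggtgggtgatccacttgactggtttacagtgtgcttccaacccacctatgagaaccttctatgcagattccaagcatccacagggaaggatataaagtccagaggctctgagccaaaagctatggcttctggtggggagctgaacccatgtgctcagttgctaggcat
Defb30 promoter, chr14:63037797-63038096, minus strand: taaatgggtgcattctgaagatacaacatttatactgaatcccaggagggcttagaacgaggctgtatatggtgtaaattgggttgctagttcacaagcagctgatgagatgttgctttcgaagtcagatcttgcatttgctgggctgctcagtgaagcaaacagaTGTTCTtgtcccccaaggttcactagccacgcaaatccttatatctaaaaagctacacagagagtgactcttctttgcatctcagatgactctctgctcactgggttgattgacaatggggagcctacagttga
Defb23 promoter, chr2:152464571-152464870, minus strand: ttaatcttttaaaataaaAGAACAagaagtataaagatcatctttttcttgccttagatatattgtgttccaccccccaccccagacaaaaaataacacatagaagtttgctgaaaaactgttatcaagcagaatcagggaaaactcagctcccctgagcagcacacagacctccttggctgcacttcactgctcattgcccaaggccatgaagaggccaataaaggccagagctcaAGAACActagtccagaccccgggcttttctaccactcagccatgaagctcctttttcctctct
Defb15 promoter, chr8:21932661-21932960, minus strand: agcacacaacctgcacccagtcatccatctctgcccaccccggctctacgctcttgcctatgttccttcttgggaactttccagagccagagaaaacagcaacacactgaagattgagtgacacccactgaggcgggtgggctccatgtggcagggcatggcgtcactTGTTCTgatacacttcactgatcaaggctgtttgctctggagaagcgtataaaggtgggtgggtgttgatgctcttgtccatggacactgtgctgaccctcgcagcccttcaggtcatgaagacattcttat
The core lies at position -84 in Defb30, at -232 and -13 in Defb23 and at -82 in Defb15, counted from the start site, and is not in the window of Lcn5. Over the 12 genes, 6 held it (Defb30, Defb23, Defb15, Defb20, Epp13 and Lypd8), each in 1 of the promoters listed for it. That is 6 of 15 promoters, against 19.0% of 32851 RefSeq promoters. The full androgen response element, a palindrome of this core with a 3-base gap, was in 0 of the 15 and in 0.00913% of all promoters. The ETS-factor core AGGAAG was found in 5 of the 15 promoters (35.4% of all promoters) and the AP-1 site TGANTCA in 0 (7.81%), on either strand. These are matches of letters in a window and say nothing of binding.

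The 5 called genes that lay between the ends had their highest levels in IS, lower ones in the caput/corpus and almost none in cauda. The difference of caput/corpus from cauda was called in all 5, and that from IS in Gpx5, Defb20 and Clpsl2. Gpx5, the peroxidase that the epididymal epithelium secretes onto sperm, stood at 875, 1146, 716 and 446 CPM in IS, 326, 144 and 149.7 in the caput/corpus and 0.355, 1.02, 0.637 and 0.483 in cauda. It was called lower than IS (-1.85 ± 0.25, edgeR adjusted p = 0.00432) and higher than cauda (8.48 ± 0.33, edgeR adjusted p = 2.19e-06), and the uneven drop gave a middle contrast of 3.31 ± 0.22 (adjusted p = 0.00019). Defb20 stood at 209, 309.8, 224 and 148 CPM in IS, 89.1, 19.9 and 28.8 in the caput/corpus and 0.177, 0.169, 0.0579 and 0.0439 in cauda (middle contrast 3.15 ± 0.31, edgeR adjusted p = 0.00435). Clpsl2, a colipase-like gene, Defb42 and the predicted gene Gm17416 had the same profile, averaging 28.7 ± 5.96, 45.6 ± 11.7 and 17.8 ± 5.24 CPM in IS and 5.85 ± 1.98, 16.5 ± 1.64 and 5.24 ± 2.52 CPM in the caput/corpus. Over the 4 cauda libraries these genes had 1, 7 and 2 reads.

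Further genes known from the epididymal epithelium had large middle contrasts without passing the adjusted threshold. Rnase9, an RNase A family member, stood at 0.0354, 0.601, 0.054 and 0 CPM in IS, 28.3, 32.4 and 17.1 in the caput/corpus and 0, 0, 0.927 and 0 in cauda (edgeR adjusted p = 0.108). All of its cauda reads came from cauda replicate 3. Rnase13, of the same family, had 0 reads in all 8 end libraries and 2.01, 2.14 and 1.07 CPM in the caput/corpus, at least 56.8-fold over IS and 57.4-fold over cauda (edgeR adjusted p = 0.223 for the middle contrast). Wfdc13, a whey acidic protein domain gene, stood at 21.2, 7.62 and 17.3 CPM in the caput/corpus and 5.71, 0, 0.985 and 0.527 in cauda, with 1 read over IS (edgeR adjusted p = 0.0751). Serpina1f, of the serpin family, stood at 17, 7.28 and 6.01 CPM in the caput/corpus and 0, 2.78, 1.33 and 2.86 in cauda, also with 1 read over IS (edgeR adjusted p = 0.114). Both had their lowest middle library above every end library. Ido1, an enzyme inside the cell that degrades tryptophan, stood at 2.26, 1.16, 1.89 and 0.216 CPM in IS, 7.66, 6.26 and 4.37 in the caput/corpus and 0, 0.237, 0 and 0 in cauda (edgeR adjusted p = 0.157).

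Of the list of caput and corpus secretory epithelium, 7 of 20 tested members were called higher (Lcn5, Gpx5, Spink11, Spink8, Defb30, Defb20 and Defb15) and 0 lower, 11 peaked and 9 lay between the ends, with a median middle contrast of 3.07. Over all genes tested 0.0992% were called, 23.4% peaked and the median was 0.04. The list was written with earlier results of these data known, and a member could pass the filter on low counts through the caput/corpus alone, so its count is not independent evidence of direction. Its summed level was 945 to 2516 CPM in the IS libraries, 688 to 1015 in the caput/corpus and 23.1 to 66.6 in cauda, where Crisp4, Pate4, Defb15 and Wfdc15a had 0 reads. Structural epithelial markers, are keratins, adhesion molecules and transcription factors of epithelial cells. Their sum was 59.8 to 275 CPM in IS, 48.2 to 86.1 in the caput/corpus and 3.51 to 11.8 in cauda. All 11 tested members lay between the ends, 0 were called and the median middle contrast was 1.26. Krt8 was at 7.75, 18, 5.67 and 5.91 CPM in IS, 9.19, 5.24 and 7.96 in the caput/corpus and 0, 0.271, 0.637 and 0.703 in cauda, and Krt18 averaged 20.7 ± 11, 10.2 ± 2.32 and 0.781 ± 0.78 CPM in the same order. The part of these markers in the called contrasts was not tested.

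The lists of the neighbouring epithelia had 0 called members. Here too a member could pass the filter on low counts through the caput/corpus alone. The counts that follow are therefore not independent evidence of direction. Of 20 genes of the initial segment epithelium, 13 had an unadjusted p under 0.05 on the higher side and 1 on the lower side (4.84% and 1.75% of all genes tested), the median was 1.72, 16 of the 20 lay between the ends, and the summed level was 1779 to 3258 CPM in IS, 519.8 to 781 in the caput/corpus and 245 to 363 in cauda. The lipocalin Lcn9 stood at 417, 472, 308 and 189.6 CPM in IS, 34.7, 2.09 and 19.5 in the caput/corpus and 0.106, 0.237, 0.174 and 0 in cauda, a middle contrast of 1.56 ± 0.62 (edgeR adjusted p = 0.655) that turned to -0.32 with limma on log2(RPKM + 1). Of 13 tested genes of the cauda epithelium and clear cells, 10 peaked in the caput/corpus (23.4% of all genes tested did), 6 had an unadjusted p under 0.05 on the higher side (4.84% of all), and the median was 1.72. Without caput/corpus replicate 1 that 6 became 2. Gpx3, the plasma-type glutathione peroxidase, stood at 107, 172, 73.7 and 95.8 CPM in IS, 315, 139.5 and 113 in the caput/corpus and 102, 93.7, 103 and 63.3 in cauda (edgeR adjusted p = 0.245). Crisp1, a cysteine-rich protein that coats sperm, stood at 42.8, 46.6, 34.1 and 21.2 CPM in IS, 114, 31.3 and 84.4 in the caput/corpus and 13.1, 27.8, 35.1 and 25.5 in cauda (edgeR adjusted p = 0.32). Caput/corpus replicate 1 was the highest library in both, and 2 caput/corpus libraries for Gpx3 and 1 for Crisp1 overlapped with those of IS. Clu, the secreted chaperone clusterin, was at 23.2, 522, 64.9 and 68.9 CPM in IS, 116, 136 and 182 in the caput/corpus and 0.071, 10.7, 3.19 and 5.58 in cauda (edgeR adjusted p = 0.569), with IS replicate 2 far above the other IS libraries.

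Among genes known from phagocytes themselves, Spp1 was the only one called. Spp1 (osteopontin) is a secreted phosphoprotein that macrophages make when they take up lipid and debris. It stood at 16.7, 20.1, 15.4 and 8.98 CPM in IS, 50.1, 34.2 and 39.3 in the caput/corpus and 25.6, 27.5, 19.1 and 21.8 in cauda, so that the lowest middle library exceeded the highest end library. The middle contrast was 1.20 ± 0.18 (edgeR adjusted p = 0.0462), with 1.52 ± 0.21 over IS (adjusted p = 0.00474) and 0.88 ± 0.21 over cauda (adjusted p = 0.108). It was 1.23 in the Maj3 and 1.22 in the Maj4 libraries alone. The call was near the threshold: it was kept in 8 of 26 alternative analyses, while the direction was kept in all 26. Of the 20 lysosome and lipid handling genes, Spp1 was the only call, and the median of the list was 0.09.

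Several genes of well-expressed level had all 3 middle libraries above all 8 end libraries without being called. Of the 7323 genes with a mean of at least 20 CPM, 11 were so placed above, Spp1 among them, and 16 below. Among genes under 20 CPM there were 97 above and 18 below. Over all 15116 genes tested this was 0.714% above and 0.225% below. The share placed above was thus smaller among the well-expressed genes than over all genes, and the placement alone does not set a gene apart. The genes of this paragraph were chosen after their values were seen. Lst1, a leukocyte-specific transcript of the MHC region, stood at 68.8, 67.2, 58.4 and 68.7 CPM in IS, 103, 100.1 and 83.9 in the caput/corpus and 74.1, 64.1, 63.2 and 63.1 in cauda. Its ends were level with each other, and the middle contrast was 0.56 ± 0.10 (edgeR adjusted p = 0.0901), with 0.64 in Maj3 and 0.54 in Maj4 alone. Gstm1, a glutathione transferase, stood at 29.2, 58, 25.3 and 26 CPM in IS, 79.1, 58.9 and 81.7 in the caput/corpus and 32.6, 49.4, 32.7 and 25.3 in cauda (1.20 ± 0.22, edgeR adjusted p = 0.13). Its gap between groups was small, since IS replicate 2 came close to the lowest middle library. Sirpb1a, a signal-regulatory receptor of myeloid cells, had means of 27.2 ± 6.01, 64.6 ± 6.85 and 43.9 ± 10.5 CPM from IS to cauda (edgeR adjusted p = 0.204). H2-Q7, a non-classical MHC class I gene, had 35.3 ± 8.2, 60.8 ± 4.11 and 44.3 ± 1.38 (adjusted p = 0.214). Ly6a, known as Sca-1, had 54.1 ± 31.8, 132 ± 29.2 and 77.2 ± 13.4 (adjusted p = 0.348). Fscn1, the actin-bundling protein of mature dendritic cells, stood at 14, 19.8, 21.5 and 16.1 CPM in IS, 33.6, 32.6 and 40.8 in the caput/corpus and 22.2, 24.5, 24.8 and 17.1 in cauda (edgeR adjusted p = 0.221).

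Pla2g2d and Slfn5 had small unadjusted p-values with overlapping libraries. Pla2g2d, a secreted phospholipase of lymphoid-tissue phagocytes, stood at 70.7, 86.2, 19.1 and 37.5 CPM in IS, 138, 108 and 50.3 in the caput/corpus and 49.5, 37.3, 35.7 and 19.8 in cauda (1.39 ± 0.29, edgeR adjusted p = 0.189). Its levels were lower in Maj4 than in Maj3 in all 3 regions, and within each series its caput/corpus libraries were above the end libraries. Slfn5, an interferon-inducible schlafen gene, showed the opposite offset, with 35.9, 30.4, 93.7 and 90.6 CPM in IS, 56.7, 165 and 171 in the caput/corpus and 47, 49.6, 143 and 148 in cauda (0.53 ± 0.08, edgeR adjusted p = 0.068). Here too the caput/corpus libraries were above the end libraries within each series.

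**Figure D3:**
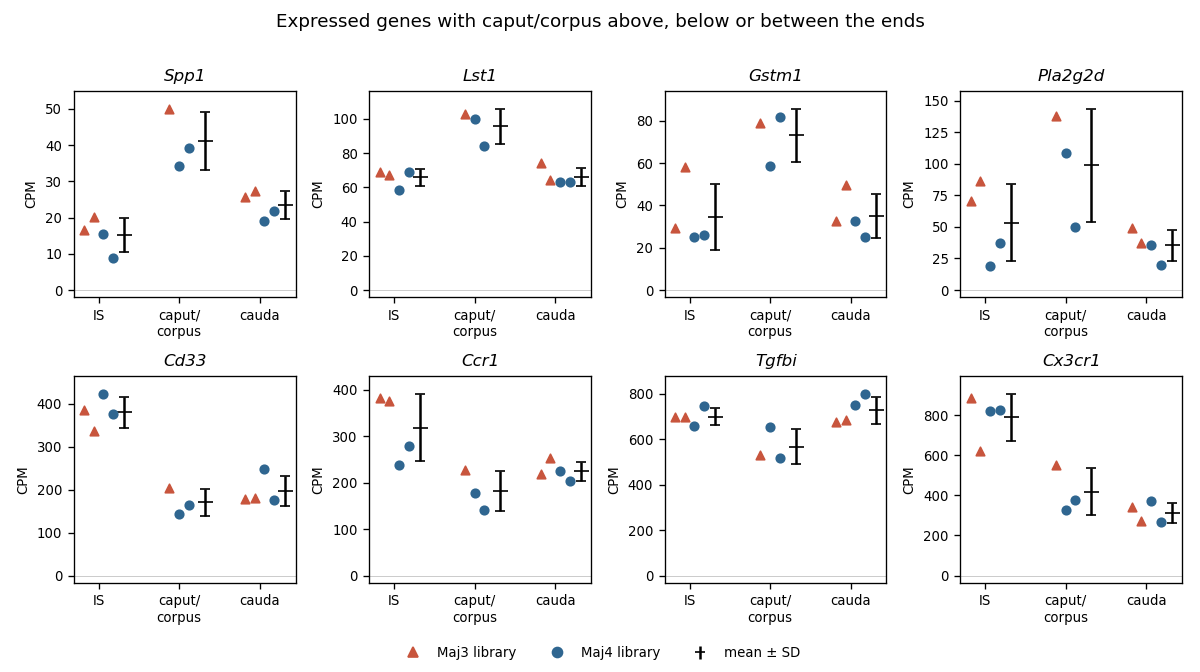
CPM in each library for 8 genes measured in the sorted fraction, whose cells of origin were not tested. Each library is 1 point (triangles Maj3, circles Maj4), and the mean ± SD of each region is a bar. Regions are in the order of the duct. For Spp1 and Lst1 the 3 caput/corpus points lie above all 8 end points, and for Cd33 and Ccr1 the caput/corpus lies near or below the cauda.

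Genes lowest in the middle were not called by edgeR (0 lower), while 25 were called lower by DESeq2 and 5 by limma-voom. The smallest adjusted p of a negative middle contrast was 0.204, for Cd33, an inhibitory sialic-acid-binding receptor of myeloid cells. It stood at 386, 336, 422 and 375 CPM in IS, 203, 143 and 164 in the caput/corpus and 178, 181, 248 and 176 in cauda (-0.68 ± 0.15). The caput/corpus and cauda overlapped, and only its difference from IS was called (-1.16 ± 0.17, edgeR adjusted p = 0.0055). Ccr1, a receptor for inflammatory chemokines, stood at 383, 376, 238 and 278 CPM in IS, 228, 177 and 141 in the caput/corpus and 219, 252, 224 and 203 in cauda (-0.50 ± 0.12, edgeR adjusted p = 0.246). Tgfbi, a matrix protein induced by TGF-beta, had its 3 middle libraries below all end libraries, at 697, 698, 658 and 747 CPM in IS, 529.7, 655 and 518 in the caput/corpus and 675, 686, 751 and 799 in cauda (-0.35 ± 0.10, edgeR adjusted p = 0.323). Lyrm9 and D5Ertd579e had the same placement, with means of 26.1 ± 6.41, 10.3 ± 2.55 and 19.8 ± 2.68 CPM and of 31.9 ± 6.68, 17.5 ± 3.38 and 30.0 ± 7.53 CPM from IS to cauda. So did Sec63, of the machinery that moves proteins into the endoplasmic reticulum, at 75.8 ± 5.46, 55.1 ± 6.89 and 75.2 ± 8.18 CPM, and Gpd1l at 50.8 ± 4.67, 36.2 ± 3.21 and 47.8 ± 3.61 (both chosen after their values were seen). The remaining dips of smallest p were Atxn7, Kif1b, Dido1 and Usp34, which encode large proteins of chromatin, transport and ubiquitin removal. Their middle contrasts were -0.64 ± 0.15, -0.74 ± 0.17, -0.69 ± 0.17 and -0.67 ± 0.16 (edgeR adjusted p between 0.221 and 0.249), and in IS, caput/corpus and cauda alike their levels were higher in Maj4 than in Maj3. Simulated counts of the same size had no difference between ends or series, and only genes above a low level were changed. There this test recovered 42% of genes changed 2-fold and 71% of those changed 4-fold. The real data hold such differences, so these shares are not the power for dips here.

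Of the markers of the sorted lineage given here, none had a called middle contrast. A missing call does not show an even slope. Cx3cr1, whose locus carries the reporter used for sorting, was measured at 888, 621, 820.1 and 825 CPM in IS, 551, 328 and 378 in the caput/corpus and 339.7, 272, 371 and 266 in cauda, with a middle contrast of -0.24 ± 0.18 (edgeR adjusted p = 0.957). Transcripts of 3 further markers were found in the sorted fraction from every region, and their cells of origin were not tested. Csf1r, the receptor of the macrophage growth factor, averaged 3273 ± 288 CPM in IS, 2224 ± 491 in the caput/corpus and 1495 ± 416 in cauda, Adgre1 (F4/80) 830.2 ± 224, 716 ± 200.4 and 509 ± 44.8 CPM, and Ptprc (CD45) 666 ± 73.3, 786 ± 109 and 874 ± 85.8 CPM. Their middle contrasts were 0.01 ± 0.20, 0.20 ± 0.15 and 0.02 ± 0.12, and none of the 3 was called. Of 21 macrophage identity genes 0 were called, 18 lay between the ends and the median was 0.03. On the higher side 1 had an unadjusted p under 0.05 (4.84% of all genes did), and 0 to 1 when single libraries were left out. Over all genes tested 0.0992% were called, so 0 calls in a short list say little of its members. Of all genes, 31.5% lay between the ends closer to the higher end and 21.4% closer to the lower. Of 14 microglia-type genes 0 were called and 13 lay between the ends (median 0.14). Apoe, the lipid carrier, had means of 51355 ± 10545, 25591 ± 14502 and 11590.0 ± 2171 CPM and a middle contrast of 0.07 ± 0.22. Lyz2, the lysozyme of myeloid cells, gave 0.25 ± 0.16. The sign for Csf1r, Ptprc and Apoe changed with the scaling or with the libraries used. Cx3cr1 gave a positive 0.251 in Maj3 alone.

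In 3 genes that were higher in cauda than in IS, the caput/corpus was nearer to cauda than to IS on the log2 scale. Retnla, a secreted product of alternatively activated macrophages, stood at 55.2, 8.9, 42 and 73.9 CPM in IS, 1502, 1559 and 1578 in the caput/corpus and 1828, 4839.5, 3264 and 6213 in cauda (1.83 ± 0.44, edgeR adjusted p = 0.246). Cd209a, a lectin of monocyte-derived dendritic cells, stood at 402, 376, 159 and 311 CPM in IS, 1256, 1041 and 834 in the caput/corpus and 1749.9, 1558, 663 and 831 in cauda (0.98 ± 0.20, edgeR adjusted p = 0.157). Its caput/corpus and cauda libraries overlapped, with a log2 difference of 0.03 ± 0.23 between them. Cd209f, a related lectin of tissue-resident macrophages, stood at 11.1, 16.6, 5.56 and 11.3 CPM in IS, 174, 100.1 and 29.4 in the caput/corpus and 20.2, 132, 57.7 and 34.8 in cauda (edgeR adjusted p = 0.246). The caput/corpus libraries of Cd209f lay across the range of the cauda libraries.

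The other lists of phagocyte genes are given by their counts, where higher means above the midpoint of both ends and not above each end. Of 16 monocyte genes 9 had an unadjusted p under 0.05 on the higher side and 0 on the lower side (median 0.57, 12 between the ends), against 4.84% and 1.75% of all genes. Ccr2, the receptor by which monocytes leave the blood, had means of 690.5 ± 291, 1766 ± 335 and 2449.5 ± 554 CPM (0.38 ± 0.26). Of 14 genes of type 2 and pan-dendritic cells 7 were higher at this unadjusted level (median 0.43, 11 between the ends). Their median difference from cauda was -0.23. Of 12 genes of type 1 dendritic cells 1 was higher and 1 lower (median 0.16, 11 between the ends). Of 10 mature dendritic genes 3 were higher (median 0.43, 6 between the ends). Of 16 MHC class II genes 5 were higher, with 15 between the ends and a median of 0.21. Among them, the middle contrast was 0.36 ± 0.12 for H2-Ab1 and 0.26 ± 0.12 for Cd74. Of 16 perivascular resident-type genes 6 were higher (median 0.39, 12 between the ends), and of 17 regulatory genes 7 (median 0.47, 6 between the ends). Of 20 inflammatory genes 6 were higher and 1 lower (median 0.40, 9 between the ends). Of 18 interferon-stimulated genes 4 were higher (median 0.22, 7 between the ends). Ifitm3, an antiviral membrane protein, had means of 444 ± 65.4, 1004 ± 198 and 1075 ± 122 CPM (edgeR adjusted p = 0.246). None of these lists held a called gene (0.0992% of all genes tested were called). Of 16 cell cycle genes 0 were higher and 1 lower (median -0.14). These counts moved when single libraries were left out. Without caput/corpus replicate 2 they fell to 3 for monocyte, 2 for MHC class II, 2 for perivascular, 4 for regulatory, 2 for inflammatory, 1 for interferon-stimulated and 0 for type 1 dendritic genes. Leaving out IS replicate 3 gave 5 monocyte, 3 perivascular, 3 inflammatory, 2 interferon-stimulated and 0 type 1 dendritic genes. Perivascular genes numbered 2 without caput/corpus replicate 1, and monocyte genes 5 without cauda replicate 3. Mature dendritic genes numbered 1 without caput/corpus replicate 3, cauda replicate 3 or cauda replicate 4 and 5 without cauda replicate 1. Leaving out IS replicate 4 gave 11 type 2 and pan-dendritic genes and 1 interferon-stimulated gene, leaving out cauda replicate 1 gave 8 MHC class II genes, and leaving out cauda replicate 4 gave 2 interferon-stimulated genes. The 1 type 1 dendritic gene also fell away without IS replicates 1, 2 or 4 or cauda replicates 3 or 4.

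Among the lists of cell states rather than cell types, heat shock genes had the largest median, and every tested member had its highest fitted level in the middle. Heat shock proteins are chaperones made when proteins unfold. Immediate early genes, many of which encode transcription factors, are switched on by stimulation of a cell. Of 12 heat shock genes 0 were called, 8 had an unadjusted p under 0.05 on the higher side (4.84% of all genes tested did), all 12 had a peak shape (23.4% of all genes tested did), and the median was 0.91. The median log2 difference was 1.08 over IS and 0.56 over cauda. At an unadjusted p under 0.05 against each end, 2 of the 12 lay above both ends (0.45% of all genes tested did). Hspa1b stood at 258, 738, 84 and 99.2 CPM in IS, 1779, 1358 and 1339.6 in the caput/corpus and 1353, 1028, 1014 and 233 in cauda (2.03 ± 0.48, edgeR adjusted p = 0.245). Its difference was 2.99 ± 0.60 over IS and 1.06 ± 0.55 over cauda (edgeR adjusted p = 0.509 over cauda). Of the end libraries, only cauda replicate 1 came up to the caput/corpus range. Its near-identical neighbour Hspa1a gave 1.89 ± 0.42 (adjusted p = 0.214), and reads cannot be divided between these copies with certainty. Within the title series, Hspa1b gave 1.26 in Maj3 and 2.50 in Maj4. Dnajb1, the partner of HSP70, stood at 100.3, 127, 61.3 and 47.9 CPM in IS, 294, 272 and 272 in the caput/corpus and 281, 222, 242 and 102 in cauda (edgeR adjusted p = 0.149). Hspe1, a mitochondrial chaperonin, stood at 14.2, 20.3, 13 and 11 CPM in IS, 35.4, 45 and 34.6 in the caput/corpus and 25.3, 23.3, 31.8 and 12.3 in cauda and did not overlap between middle and ends (edgeR adjusted p = 0.249). Cauda replicate 4 was the lowest cauda library in Hspa1b, Dnajb1 and Hspe1.

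Immediate early genes had the highest share of members at the unadjusted level, 17 of 20 on the higher side (4.84% of all genes tested) and 0 on the lower side (1.75% of all), with 0 called and a median of 0.55. Of the 20, 9 lay between the ends. Egr1 stood at 875, 1038, 556 and 938 CPM in IS, 2020.5, 1504 and 1707 in the caput/corpus and 1718, 1728, 1442 and 1013 in cauda (0.71 ± 0.16, edgeR adjusted p = 0.211). Nr4a1, which is also a factor of patrolling monocytes, stood at 212, 409.9, 117 and 255 CPM in IS, 1075, 1239.7 and 1304 in the caput/corpus and 1868, 1354, 1078 and 488 in cauda (1.36 ± 0.34, edgeR adjusted p = 0.254). Ier5 was at 381, 518, 441 and 501 CPM in IS, 746, 727 and 759 in the caput/corpus and 647, 587, 630.0 and 541 in cauda, with no overlap (0.50 ± 0.11, edgeR adjusted p = 0.191). For Egr1 and Nr4a1 the caput/corpus and cauda libraries overlapped. Fosb, which lay between the ends, gave 0.97 ± 0.28. With the count files taken as listed, Egr1 and Fosb turned to -0.04 and -0.03.

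**Figure D4:**
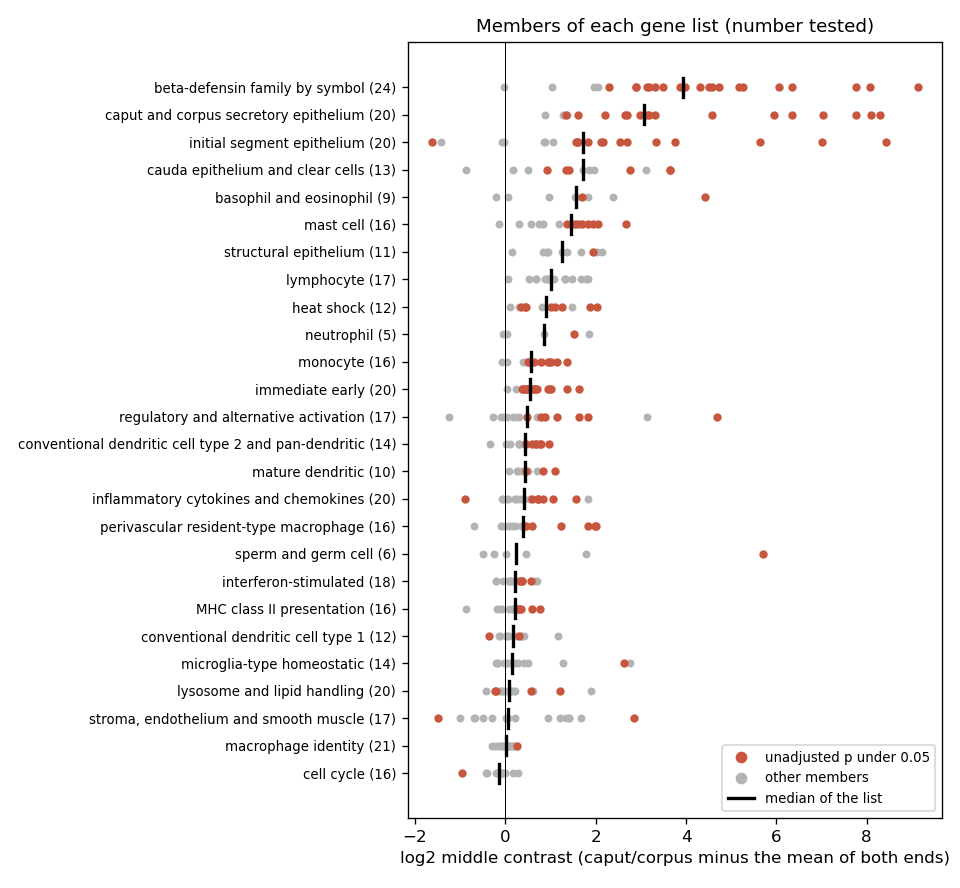
Middle contrast (log2) of every tested member of each gene list, 1 point per gene, in red where the unadjusted p was under 0.05, with the median of the list as a bar and a vertical line at 0. Beta-defensins and members of the caput and corpus secretory list spread furthest to the right, heat shock members all lie right of 0, and macrophage identity members lie around 0.

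Markers of other immune cells give the range of what else the sorted fraction held. Mast cell genes lay between the ends in all 16 tested members, with 0 called, 8 higher at the unadjusted level (4.84% of all genes tested) and a median of 1.45. Their summed level was 262 to 445 CPM in IS, 1101 to 1427 in the caput/corpus and 1491 to 4830.2 in cauda. The tryptase gene Tpsb2 stood at 49.7, 12.2, 18.9 and 14.3 CPM in IS, 355, 374 and 239 in the caput/corpus and 551, 1399, 436 and 382 in cauda (1.60 ± 0.39, edgeR adjusted p = 0.249). Mcpt8, a basophil protease, stood at 4.49, 5.63 and 4.8 CPM in the caput/corpus and 0, 1.08, 4.05 and 3.21 in cauda with 2 reads over IS (4.41 ± 1.11, edgeR adjusted p = 0.262). Of 9 tested basophil and eosinophil genes 2 were higher at the unadjusted level (4.84% of all genes tested), and 4 without cauda replicate 1. Of the 14 neutrophil markers 5 could be tested and 0 were called. S100a9 and Ly6g, which define neutrophils, had 0 reads in all 3 regions. Mmp9, a gelatinase on that list, averaged 50.5 ± 7.58 CPM in IS, 216 ± 56.5 in the caput/corpus and 112 ± 64.1 in cauda (1.52 ± 0.42, edgeR adjusted p = 0.323). Of 17 tested lymphocyte genes 13 peaked in the middle (23.4% of all genes tested did), with a median of 1.02 (0.04 over all genes). In this list and the others of this paragraph, a low member could pass the filter on low counts through the caput/corpus alone. Their counts and medians are therefore not independent evidence of direction. Of these 17, 0 had an unadjusted p under 0.05 (5 without cauda replicate 1, and 1 without cauda replicate 2, cauda replicate 3 or IS replicate 4). The summed level of the list was 127 to 249 CPM in IS, 213 to 344 in the caput/corpus and 132 to 217 in cauda. Of 17 stromal, endothelial and smooth muscle genes 1 was higher and 1 lower at the unadjusted level (median 0.06). Of 6 tested sperm and germ cell genes 1 was higher (median 0.23). Over all genes tested 4.84% were higher and 1.75% lower, so single genes in lists of this length say little. Leaving out single libraries, 0 to 2 stromal and 1 to 2 germ cell genes were higher.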

How the data were processed

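Per the labels' protocols, a PicoRNA kit served for the extraction of total RNA and the Clontech SMARTER v4 chemistry for the libraries, which ran on an Illumina HiSeq2500. STAR, HTSeq, edgeR and build mm9 are named in the submitters' processing notes, without roles or versions. The authors deposited an RPKM table over all libraries and a file of read counts per gene for each library, and the counting was not stranded, so antisense and overlapping genes cannot be told apart. RPKM times gene length gave whole reads for 100% of values (tolerance 0.001), and these recovered reads were tested. Since 3 of the deposited count files hold other reads than the columns, the columns were used.

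Genes were kept by filterByExpr (15116 of 37583), scaled by TMM and fitted in edgeR 4.0.16 (R 4.3.3) with quasi-likelihood, region and title series as terms. Counts were also simulated without differences between ends or series, with changes only in genes above a low level. There 42% of 2-fold and 71% of 4-fold changes were recovered (100 genes each of 14626), with 4 false calls. Other settings used limma 3.58.1 and DESeq2 1.42.0. Symbols were matched for 32860 identifiers. The 13 mitochondrially encoded genes of 1 list were not analysed here. No genome of build mm9 was used, so gene positions are not given beyond the promoter windows.

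The members and gene lists were chosen with earlier results of these data known. Named genes are called peaks and dips by smallest p, largest contrast and highest CPM (8 each), genes past both ends, called genes between the ends (4), called list members (up to 4, otherwise 2 by highest CPM), and Cx3cr1, Csf1r, Adgre1 and Ptprc. With fewer than 5 called genes of a shape, the 8 of smallest p are given as values. A further 34 genes were chosen after their values were seen, among them those given from Rnase9 to Ido1, from Lst1 to Slfn5, Cd33, Ccr1 and Tgfbi, the heat shock and immediate early genes, Cd209a, Cd209f, Retnla, Clu, Mcpt8, Mmp9, Defb22, Krt8 and Krt18.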

Additional observations from a re-analysis of the deposited data

Results flagged for a closer look

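In groups of 4 libraries, a library was marked when it stood apart from the rest by Dixon's criterion, which chance meets in about 1 in 20 groups, and 117 groups were tested. For Lst1, IS replicate 3 stood at 58.4 CPM against 67.2 to 68.8 in the other IS libraries, and cauda replicate 1 at 74.1 against 63.1 to 64.1. Both lay below the lowest caput/corpus library, at 83.9. For Gstm1, IS replicate 2 stood at 58.0 CPM against 25.3 to 29.2, and for Clu, the same library stood at 522 CPM against 23.2 to 68.9. The keratin Krt8 was also highest there, at 17.96 CPM against 5.67 to 7.75. For Cd33, cauda replicate 3 stood at 248 CPM against 176 to 181. The mast cell proteases Tpsb2 and Cma1 were high in cauda replicate 2, at 1399 CPM against 382 to 551 and at 1102 CPM against 263 to 352. H2-Q7 was at 42.2 CPM in cauda replicate 2 against 44.8 to 45.1. Cauda replicate 1 had 13434 genes with a read against 17168 to 17789.

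The count file listed for IS replicate 2, which matches no column and enters no comparison except that on the files as listed, held Lcn5 at 16.1 per 1000000 gene reads, against 0.863 to 1.77 CPM in the IS columns. Its origin was not tested.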

How the results depend on the processing

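All 15 called genes kept a positive middle contrast in every one of 26 alternative analyses in which they were tested. The number of calls moved more. It was 185 (160 higher, 25 lower, 14 past both ends) with DESeq2's Wald test, 181 (176, 5 and 28) with limma-voom and quality weights, 55 (49, 6 and 28) with limma on log2(RPKM + 1) and 47 (46, 1 and 21) on log2(RPKM + 0.1). It was 39, with 3 past both ends, without a filter on low counts, and 6 among genes with a mean of at least 10 CPM, where fewer genes were tested. The 8 libraries with undisputed sources gave 23 (22 higher, 1 lower). The Maj3 libraries alone gave 0 called and 0 past both ends, with 183 at an unadjusted p under 0.05, and the count files as listed gave 0 and 0, with 683. Robust estimation of spread without cauda replicate 1, chosen after seeing the data, gave 35 and 3. Leaving out each library gave 2 to 35 called, all higher, and 0 to 3 past both ends: Lcn5 was not past both ends without IS replicate 3, IS replicate 4, caput/corpus replicate 1 or caput/corpus replicate 2. The cause of these differences was not tested.

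Whether the numbers in the source labels pair libraries could not be decided. With the replicate number as a block, 6 genes were called, all higher, and 0 were past both ends. A block also costs degrees of freedom, so this count does not speak to pairing. Same-numbered libraries correlated in their deviations at 0.11 (IS with cauda, Maj3), 0.02 (IS with caput/corpus, Maj4), -0.01 (IS with cauda, Maj4) and -0.04 (caput/corpus with cauda, Maj4). Within each region and series the deviations mirror each other, so these values do not decide on pairing. The Maj3 value also rests on columns that the count files dispute.

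The sign of the middle contrast turned in genes near 0 and in a few others. Leaving out each library, Apoe ranged from -0.322 (without caput/corpus replicate 1) to 0.306. It turned to -0.317 in Maj4 alone, -0.321 in the 8 libraries and -0.0223 with the replicate block. Csf1r ranged from -0.333 (without caput/corpus replicate 1) to 0.126 and was also below 0 without cauda replicate 1 (-0.0773, the same with robust spread) and IS replicate 4 (-0.0306). It turned to -0.321 in Maj4 alone, -0.327 in the 8 libraries, -0.0828 with the block, -0.00313 and -0.00314 with DESeq2's size factors and Wald test, -0.00111 with voom, and -0.00931 and -0.00907 on log2(RPKM + 1) and log2(RPKM + 0.1). Ptprc ranged from -0.0431 to 0.145 and was below 0 without IS replicate 3 (-0.00823), caput/corpus replicates 2 (-0.0288) and 3 (-0.00587) and cauda replicate 3 (-0.0431). It turned to -0.021 with voom, -0.145 in Maj3 alone and -0.075 with the files as listed. Cx3cr1 was 0.251 in Maj3 alone and Lcn9 -0.318 on log2(RPKM + 1). With the files as listed, Ccr2 was -0.0916, Egr1 -0.0419 and Fosb -0.0291.

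Depth limits the low genes: 8 of the 15 called genes had at most 3 reads over the 4 cauda libraries, and 9 had a caput/corpus mean under 20 CPM, so their fitted contrasts carry wide counting error and depend on the small counts at the ends.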
